A study of Mus musculus with 6 samples.

Results

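Cd86, Fcgr2b and Tnfaip3 are 3 of the 445 genes whose antisense strand was probed on a custom array in mammary tumors and normal mammary glands of mice. They were measured by 17 of the 2156 named probes, of which 14 were artificial antisense sequence (AFAS) probes, designed against the strand complementary to the mRNA, and 3 were sense probes that detect the mRNA itself. Probes were assigned by the gene symbol or RefSeq accession in the scanner files, which gave NM_019388 for Cd86 (5 AFAS probes), NM_010187 for Fcgr2b (3 AFAS probes) and NM_009397 for Tnfaip3 (6 AFAS probes), each with 1 sense probe. The genes were chosen by their tumor-against-normal signals on these same arrays, on the sense and AFAS probes alike, so those differences are given here as a description and carry no test.

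The study hybridized total RNA, labelled with 1 dye (Cy3) from random primers, from 4 mammary tumors (tumors 1 to 4) and 2 normal mammary glands (normal glands 1 and 2) of GRS/A mice, a strain in which mouse mammary tumor virus induces such tumors. Each sample was 1 array of whole tissue with no further treatment, ages are not given in the sources used here, and the labels do not say whether the samples of a group came from separate mice, so the spread between arrays may be partly technical. The extraction protocol in the labels names brain, whereas the titles and the paper name mammary tissue. The epithelial markers Krt14 and Krt19 gave sense signals far above the lowest value of the table on all 6 arrays, from 1752 to 5193 for Krt14 and from 1816 to 41034 for Krt19, and no adipocyte marker was among the named probes.

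CD86 (B7-2) sits on dendritic cells, macrophages and activated B cells and gives the costimulatory signal to T cells through CD28, or a restraining one through CTLA4. FcγRIIB, the product of Fcgr2b, is the inhibitory receptor for the Fc part of IgG on B cells and myeloid cells. Tnfaip3 encodes A20, a ubiquitin-editing enzyme that is switched on by NF-κB and shuts down signalling from TNF and Toll-like receptors. An antisense transcript is RNA read from the opposite strand of a gene, and in general such transcripts may or may not affect the mRNA.

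The probes were 60 bases long, and AFAS probes of a gene are lettered in the order of their names. Stretches of 30 bases are shown for those on which the description turns, since the place of a signal along the gene is fixed by the probe. In the last pair the capitals mark the 27 bases over which Tnfaip3 AFAS probe d and the sense probe are exact complements, both in bases 34 to 60, so that this pair reads the opposite strands of the same stretch. The stretches run from base 1 to 30, or from base 31 to 60 in the last pair. No other pair among the named probes that included a probe of these genes shared 20 bases or more on either strand.
Cd86 AFAS probe a: tgccgtatagatacactatgtgctttcagc
Cd86 AFAS probe c: cttggcctatgagtgtgcactgagttaaac
Cd86 sense probe: aatattgttgtttccattttacataaaggg
Fcgr2b AFAS probe a: cagtgtggatcgatagcagaagagtcttga
Fcgr2b AFAS probe c: cagcaagatttagcacggctgtccacagta
Fcgr2b sense probe: atcaacttactgccgttaagagactgcagc
Tnfaip3 AFAS probe c: cttcaaagaggtaggatacttagaagcata
Tnfaip3 AFAS probe e: aagttagcttcatccaattttgcagcgttg
Tnfaip3 AFAS probe d: aatTCACGTAACAAGCTGTATAGACAGGGG
Tnfaip3 sense probe: ttgCCCCTGTCTATACAGCTTGTTACGTGA

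The genes lie on chromosomes 16 (Cd86), 1 (Fcgr2b) and 10 (Tnfaip3). In the RefSeq gene table of mouse assembly GRCm38.p6 no other gene overlapped the span of any of them, so the table holds no annotated transcript on their opposite strands. Coordinates are not given because the array files name no genome build.

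The measurement is the deposited signal intensity, which the authors scaled with a constant for every array, writing 5 for anything lower or not significantly above background. At this lowest value stood 17, 250, 256 and 277 of the 2154 probes used on tumors 1 to 4, and 525 and 669 on normal glands 1 and 2. Values at 5 have no order among themselves, and a fold against them depends on that limit. A level can be compared between arrays for a probe but not between probes. Differences below are the mean log2 signal of the tumors minus that of the normal glands, with the standard error from the fit over all probes of a strand. Over all probes the median difference was 0.50 as deposited. With the arrays brought to a common 75th percentile it was 0.22, with a common median 0.29, and with quantile normalization -0.03, so a typical probe lay above 0 on the deposited scale.

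The mRNAs of the 3 genes behaved differently. The sense signal of Tnfaip3 was higher in every tumor than in either normal gland, whereas the tumor and normal ranges overlapped for Cd86 and Fcgr2b. Among all 404 sense probes 42.6% had every tumor above both normal glands and 3.47% had every tumor below them, or 46.0% in either direction, so 1 of 3 is near the general share.

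For Cd86 the sense signal was 172, 224, 34.2 and 120.2 in tumors 1 to 4 and 106 and 49.9 in normal glands 1 and 2. Tumor 3 lay below both normal glands and the other tumors above them. The mean was 138 ± 80.8 (SD, n = 4) for the tumors and 77.8 ± 39.6 (SD, n = 2) for the glands. The log2 difference was 0.63 (standard error 0.80), smaller than its error. The signal spanned 2.71 on the log2 scale among tumors, against 1.71 for Fcgr2b and 0.39 for Tnfaip3. With normexp background correction and an offset of 50 on the tumor arrays these spans were 1.20, 1.58 and 0.60, so the order of Cd86 and Fcgr2b turned under that setting.

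For Fcgr2b the sense signal was 5588, 1956, 1706 and 2215 in tumors 1 to 4 and 2876 and 1959 in normal glands 1 and 2. Tumor 1 stood above all other arrays, tumors 2 and 3 lay below both normal glands and tumor 4 lay between them. The means were 2866 ± 1827 (SD, n = 4) and 2417 ± 649 (SD, n = 2), with a log2 difference of 0.10 (standard error 0.59). Its sign turned to -0.30, -0.17 and -0.27 with scaling to the 75th percentile, to the median and with quantile normalization, to -0.29 without tumor 1 and to -0.18 without normal gland 2, so no direction can be given for this mRNA.

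For Tnfaip3 the sense signal was 174, 155, 196 and 149.8 in tumors 1 to 4, against 68.0 and 28.6 in normal glands 1 and 2. All 4 tumors lay close together, and every tumor was above both normal glands. The means were 169 ± 21.0 (SD, n = 4) and 48.3 ± 27.8 (SD, n = 2). The log2 difference was 1.93 (standard error 0.49), a 3.81-fold difference on the log2 scale, and it was 1.53, 1.66 and 1.60 under the 3 other scalings. The normal glands set its size, as the log2 difference was 2.55 without normal gland 1 and 1.30 without normal gland 2.

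**Figure D1:**
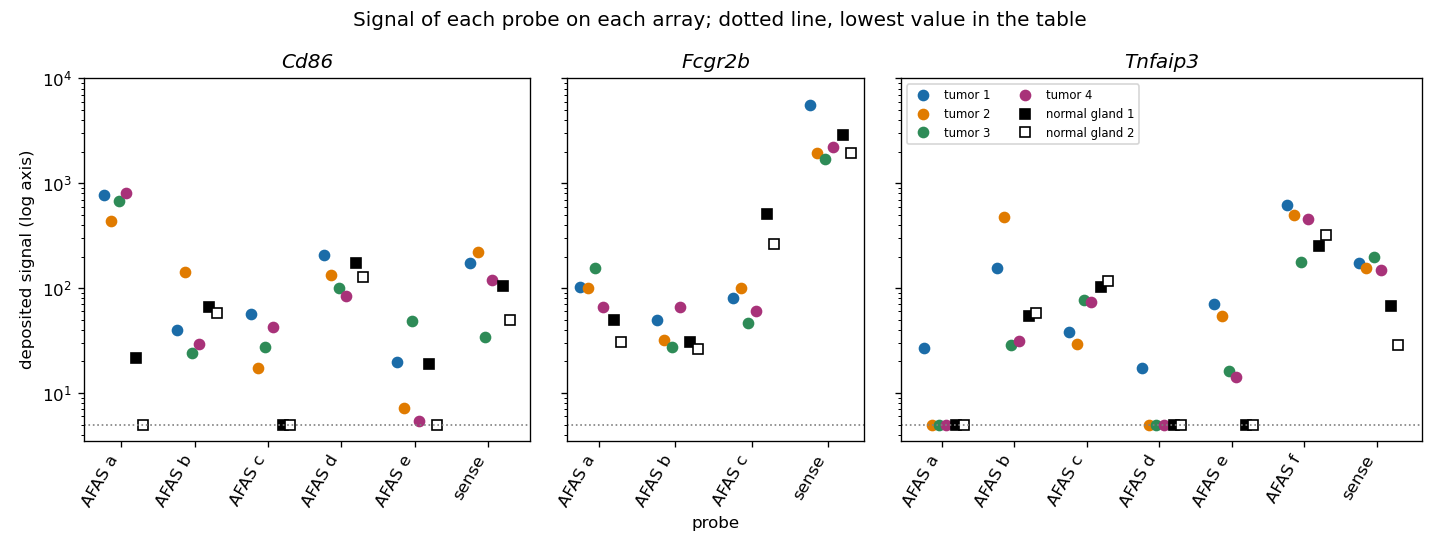
Deposited signal (log axis) of every sense and AFAS probe of Cd86, Fcgr2b and Tnfaip3 on each array; circles are the 4 tumors, squares the 2 normal glands, and the dotted line is the lowest value of the table, 5. Cd86 AFAS probe a lies from 441 to 803 in tumors against 21.6 and 5 in normal glands, whereas Fcgr2b AFAS probe c lies from 46.1 to 100.2 in tumors against 507 and 262.

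On the antisense strand the probes of each gene did not move as a group. Of the 14 AFAS probes, 4 had every tumor above both normal glands, 2 had every tumor below them and 8 overlapped. Over all 1750 AFAS probes the corresponding shares were 21.6% and 6.91%, and 28.5% in either direction. The median log2 difference of the 14 was 0.52, beside 0.44 for all AFAS probes, with a span from -2.41 to 5.98. In the fit over all AFAS probes 0.457% passed an adjusted p of 0.05 as higher in tumors and 0% as lower.

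In Cd86 the 5 AFAS probes fell into different patterns. Probe a gave 779.9, 441, 673 and 803 in tumors 1 to 4, against 21.6 in normal gland 1 and the lowest value in normal gland 2. Every tumor was above both normal glands, with a mean of 674 ± 165 (SD, n = 4). The log2 difference was 5.98 (standard error 0.66) with normal gland 2 taken at 5, and it was 4.98 when the lowest value was set to 20. Without normal gland 1 it was 7.04, with the remaining gland at the lowest value, and without normal gland 2 it was 4.93. The signal was well above background on all 4 tumor arrays.

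Probe c of Cd86 gave 56.9, 17.2, 27.5 and 42.7 in tumors 1 to 4 and was at the lowest value in both normal glands, so no fold is given. Every tumor again exceeded the normal glands, although tumor 2 was below the dimmest well-above-background signal of its array, 24.5. The other probes of the gene showed no such separation. Probe d gave 207, 133, 99.6 and 83.5 in tumors and 173 and 127 in normal glands, which is -0.27 on the log2 scale (standard error 0.50). Probe b gave 39.6, 144, 24.2 and 29.4 in tumors and 65.9 and 58.5 in normal glands, with tumor 2 alone above the glands. Probe e was at most 48.7 on any array, with its tumors on both sides of normal gland 1. The antisense signal of probe a and the sense signal of Cd86 were also ordered differently among tumors, tumor 2 being the lowest for the former and the highest for the latter.

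In Fcgr2b the AFAS probes pointed in opposite directions. Probe c gave 80.0, 100.2, 46.1 and 60.0 in tumors 1 to 4 and 507 and 262 in normal glands 1 and 2, with every tumor below both glands. Its mean was 71.6 ± 23.6 (SD, n = 4) for the tumors and 384 ± 173 (SD, n = 2) for the glands. The log2 difference was -2.41 (standard error 0.51), a signal 5.31-fold higher in normal glands on the log2 scale. Under the 3 other scalings it was -2.81, -2.68 and -2.78.

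Probe a of Fcgr2b gave 103, 101, 154 and 66.5 in tumors and 49.2 and 30.4 in normal glands. Every tumor was above both glands, with a log2 difference of 1.40 (standard error 0.48). Probe b gave 49.3, 32.0, 27.3 and 66.0 in tumors and 30.4 and 26.4 in normal glands, and its ranges overlapped. All 3 probes were well above background on the 4 tumor arrays. Thus a stretch with less antisense signal in tumors and one with more were found in a gene whose sense signal had no settled direction.

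In Tnfaip3 the sense probe and AFAS probe d, which is complementary to it over 27 bases, could be set side by side. The whole probe d gave 17.3 in tumor 1 and the lowest value in the 3 other tumors and both normal glands. It was significantly above background on 3 of the 4 tumor arrays and well above it on 0. No difference in antisense signal well above background was therefore seen with the probe that overlaps the sense probe, whose signal was higher in all tumors. Probe a likewise exceeded the lowest value in tumor 1 only, at 27.1.

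Probe e of Tnfaip3 gave 70.1, 54.8, 16.4 and 14.3 in tumors 1 to 4 and the lowest value in both normal glands. Tumors 1 and 2 were thus above tumors 3 and 4, and the signals of the latter were below the dimmest well-above-background signals of their arrays, 19.03 and 18.57. With the lowest value set to 20 its log2 difference fell from 2.62 to 0.82. Probe c went the other way, with 38.2, 29.7, 77.8 and 74.0 in tumors and 102 and 118 in normal glands. Every tumor lay below both glands, with a log2 difference of -1.11 (standard error 0.54), and here tumors 3 and 4 were the higher ones. With scaling to the 75th percentile, to the median and with quantile normalization the difference was -1.51, -1.38 and -1.73. It was -1.70 when arrays were blocked on their replicate number, a fit in which tumors 3 and 4 drop out of the difference.

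Probe b of Tnfaip3 spanned 4.03 on the log2 scale among tumors (2.29 with normexp and an offset of 50), with 155, 472, 29.0 and 31.1 in tumors 1 to 4 around 53.9 and 58.6 in the normal glands. Tumors 1 and 2 were above both glands and tumors 3 and 4 below both. The spot of this probe was flagged as non-uniform on 1 of the 4 tumor arrays. Probe f gave 616, 499, 178 and 459 in tumors and 254 and 321 in normal glands, so that 3 tumors were above the glands and tumor 3 below. Tumors 3 and 4 shared 1 slide, while tumors 1 and 2 were each on a slide of their own. The part of the slide in the split of tumors 1 and 2 from tumors 3 and 4 in probes b, c and e was not tested. On which slides the normal glands lay was not examined.

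**Figure D2:**
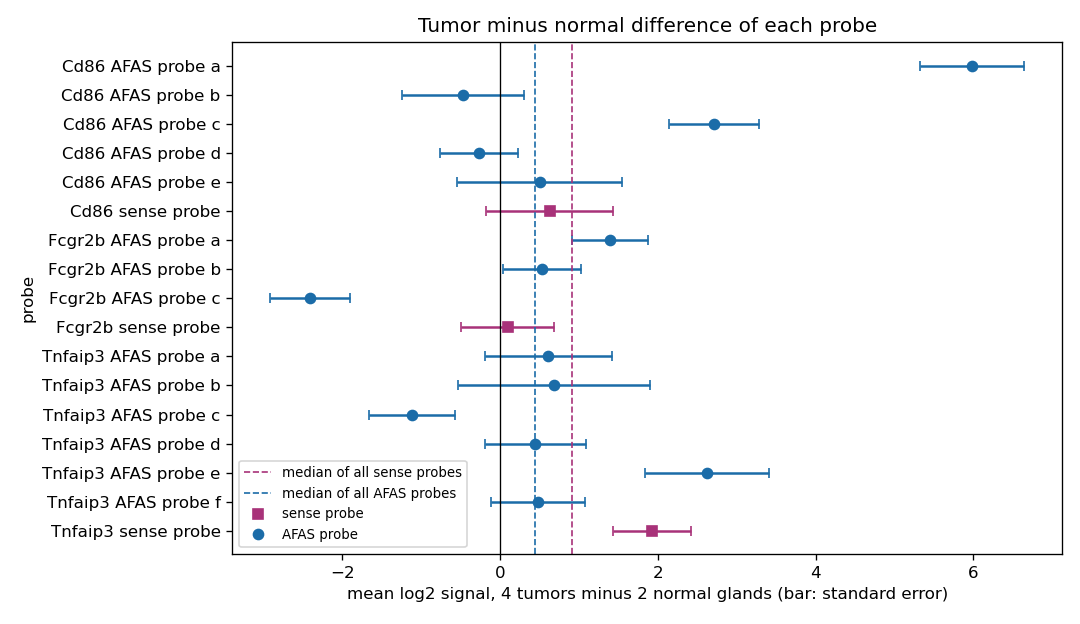
Mean log2 signal of the 4 tumors minus that of the 2 normal glands (horizontal axis) for each of the 17 probes; circles are AFAS probes, squares sense probes, bars standard errors, and dashed lines the medians of all AFAS (0.44) and all sense (0.91) probes. Probes of the same gene lie on both sides of the AFAS median, from -0.47 to 5.98 in Cd86, from -2.41 to 1.40 in Fcgr2b and from -1.11 to 2.62 in Tnfaip3. The upper ends in Cd86 and Tnfaip3 depend on the lowest value of the table, at which normal glands stood.

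The other immune genes on the array place these mRNAs in their pathways. In 5 lists (B7 and CD28 costimulation, Fc receptor signalling, the TNF and NF-κB pathway, inflammatory genes induced by NF-κB, and cytokines with their receptors) 60 further genes had a probe. By limma with Benjamini-Hochberg adjustment, 6 of their 48 sense probes were higher in tumors at an adjusted p of 0.05 and 0 were lower, a share of 12.5% beside 14.4% higher and 0.248% lower over all sense probes. The median log2 difference of the 48 was 1.31, beside 0.91 for all sense probes. The count depended on single arrays: 0 genes were called without tumor 1, tumor 4 or normal gland 2, 1 without normal gland 1, and 14 without tumor 3. It was also 2, 3 and 2 under the 3 other scalings. On the antisense strand none of their 233 AFAS probes passed in limma, while 23 were higher and 7 lower at an unadjusted p of 0.05, a threshold that 13.0% of all AFAS probes passed as higher and 3.26% as lower.

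In the list of B7 and CD28 costimulation none of the 3 sense probes, of Cd40, Cd40lg and Pdcd1, passed. Of these, 0 reached an unadjusted p of 0.05 in limma, which 36.4% of all sense probes reached as higher and 1.98% as lower in tumors. The median log2 difference of the 3 was 0.04. Cd40lg, the T cell ligand of CD40, gave 31, 27.2, 5.92 and 6.26 in tumors and the lowest value in both normal glands (adjusted p = 0.251 from limma). Pdcd1, the inhibitory receptor PD-1, gave 189 to 301 in tumors and 266 and 189 in normal glands (adjusted p = 0.969 from limma).

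Among the genes of Fc receptor signalling, 1 of 4 sense probes rose, beside 14.4% of all sense probes. It was Ptpn11, which encodes the phosphatase SHP2 and acts in many pathways besides this one. Its sense signal was 589, 372, 400.4 and 1013 in tumors and 133 and 88.1 in normal glands. In limma the log2 difference was 2.33 with a standard error of 0.55 and an adjusted p of 0.0378. Syk, the kinase downstream of activating Fc receptors, gave 70.5, 96.1, 19.03 and 83.1 in tumors and 76.3 and 50.3 in normal glands (adjusted p = 0.934 from limma). The median difference of the 4 probes was 0.25.

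In the TNF and NF-κB pathway, to which Tnfaip3 belongs, 1 of 11 sense probes rose and none fell, beside 14.4% and 0.248% of all sense probes, with a median log2 difference of 1.21. The probe was that of Ltbr, the lymphotoxin β receptor, at 510.0, 415, 359 and 903 in tumors and 143 and 111 in normal glands (by limma 2.03 on the log2 scale, standard error 0.52, adjusted p = 0.0414). Nfkbia, the NF-κB inhibitor that is itself switched on by NF-κB, gave 3196 to 6902 in tumors and 3353 and 2355 in normal glands (log2 difference 0.61, limma adjusted p = 0.415). Of the 7 inflammatory genes induced by NF-κB none passed and 2 reached an unadjusted p of 0.05, beside 36.4% of all sense probes as higher and 1.98% as lower, with a median of 1.16. The log2 differences of Csf1, the macrophage growth factor, and of the chemokine Ccl3 were 1.43 (limma adjusted p = 0.0888) and 3.1 (limma adjusted p = 0.109), the latter with normal gland 2 at the lowest value. Among cytokines and receptors 4 of 23 sense probes rose and none fell, near those shares, with a median of 1.51. At an unadjusted p of 0.05, 12 of the 23 were higher and 2 lower, and in the TNF and NF-κB pathway 5 of 11 were higher and 0 lower, beside 36.4% and 1.98% of all sense probes. The 4 cytokine and receptor probes past the adjusted threshold included Lifr (log2 difference 2.71, adjusted p = 0.0414 from limma) and the interferon receptor chain Ifnar1 (2.44, adjusted p = 0.0299). The others were of 2 genes with normal glands at the lowest value, for which no difference is given because it depends on that value. Lif, the ligand of Lifr, gave 140 to 599 in tumors and 22.4 and 5 in normal glands (adjusted p = 0.0207 from limma). The anti-inflammatory cytokine Il10 gave 15.7 to 37.4 in tumors and 5 in both normal glands (adjusted p = 0.0299 from limma), and its signal in tumor 3 was below the dimmest well-above-background signal of that array.

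Immune mRNAs also differed between the tumors. Tumor 1 had the highest sense signal for Ccl3 (699 against at most 68.3 in the other tumors), Cxcl2 (2947 against at most 230.1), Relb (5923 against at most 1274) and Vcam1 (2431 against at most 887), as it did for Fcgr2b. These genes were named after their values were seen, and tumor 1 was the highest tumor for 16 of the 48 sense probes in the immune lists (33.3%), beside 30.7% of all sense probes. In the list of inflammatory genes induced by NF-κB tumor 1 was the highest tumor for 4 of 7 genes. For Tnfaip3 the sense signal was 174 in tumor 1 and 149.8 to 196 in the others.

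Tumor 3 had low signals for many immune genes. Of the 10 sense probes for B cell, T cell and myeloid markers 7 were lowest in tumor 3 among the tumors, beside 42.1% of all sense probes, and of the 48 in the immune lists 28 were (58.3%). Blk, Csf1r and Csf3r belong to both sets and were lowest there, so the counts overlap. After scaling to the 75th percentile the counts were 6 of 10 and 24 of 48, beside 31.7%. All 4 myeloid markers were lowest in tumor 3, at 75.4 for Cd14, 78.9 for Itgb2, 233 for Csf3r and 2193 for Csf1r, where the other tumors had at least 319, 435, 827 and 3629. The highest tumor for 7 of the 10 markers was tumor 2, beside 23.3% of all sense probes. Low signals in tumor 3 were not particular to leukocyte markers, as 2 of 3 endothelial markers and the basal marker Krt14 (1752 against at least 2658) were also lowest there. The Cd86 sense signal was lowest in the same tumor under both scalings. In whole tissue, fewer cells of a type and less RNA per cell cannot be told apart.

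By cell type, the summed sense signal of the 4 myeloid markers was 9247, 8797, 2581 and 5209 in tumors 1 to 4 and 5805 and 5420 in normal glands. The Csf1r probe had the highest mean over the 6 arrays and Csf3r the brightest signal in the normal glands, and none was at the lowest value. Such sums weight the brightest probes and do not order the mRNAs. The log2 difference was 1.51 for Csf1r, the receptor for CSF1 (limma adjusted p = 0.0774), and -2.15 for Csf3r, a neutrophil receptor (limma adjusted p = 0.120). It was 2.66 for Cd14 (limma adjusted p = 0.169) and 0.64 for Itgb2 (limma adjusted p = 0.657), so Csf3r alone lay below 0. The 3 B cell markers summed to 247, 919, 303 and 228 in tumors and 614 and 499 in normal glands, with Pou2af1 the brightest probe by its mean, and all 3 were highest in tumor 2 among the tumors. The 3 T cell markers summed to 16235, 32479, 8334 and 11186 in tumors and 7565 and 4295 in normal glands, a sum set by the brightest probe, that of Cd4, and the other markers of that list were Lck and Cd2. None of these 10 markers passed the adjusted threshold in limma, and 3 reached an unadjusted p of 0.05 (2 higher and 1 lower in tumors), beside 36.4% of all sense probes as higher and 1.98% as lower. Their part in the signals of Cd86, Fcgr2b and Tnfaip3 was not tested.

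Among markers of other cells, the luminal gene Erbb3 rose (log2 difference 1.98, adjusted p = 0.0414 from limma), as 1 of 4 luminal sense probes, beside 14.4% of all sense probes. The median log2 difference of the 4 was 2.15, beside 0.91 for all sense probes, and 3 were higher in tumors at an unadjusted p of 0.05, beside 36.4%. Every tumor was above both glands for Prlr, the prolactin receptor (log2 difference 3.54, limma adjusted p = 0.0566), and for Krt19 (2.31, limma adjusted p = 0.1002). Their part in the signals of Cd86, Fcgr2b and Tnfaip3 was not tested. Esr1, the estrogen receptor in the same list, gave 886, 2654, 731 and 7584 in tumors and 4339 and 5416 in normal glands (limma adjusted p = 0.340). The basal marker Krt14 (0.08, adjusted p = 0.942 from limma) and the 3 endothelial sense probes, among them the brightest, Pecam1 (0.73, adjusted p = 0.460 from limma), did not pass. Of 22 endothelial AFAS probes 1, of Thbd, rose (3.76, adjusted p = 0.0273 from limma), beside 0.457% of all AFAS probes. These calls also depended on single arrays, since no sense probe passed without tumor 4 or normal gland 2, 1 passed without tumor 1, and no AFAS probe passed when tumor 3, tumor 4 or any 1 normal gland was left out. The milk gene Glycam1 had 2 AFAS probes. One gave 13.1, 5, 24.2 and 5 in tumors and 442 and 73.1 in normal glands (adjusted p = 0.157 from limma), so its difference depends on the lowest value, and the log2 difference of the other was -1.89 (limma adjusted p = 0.245).

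**Figure D3:**
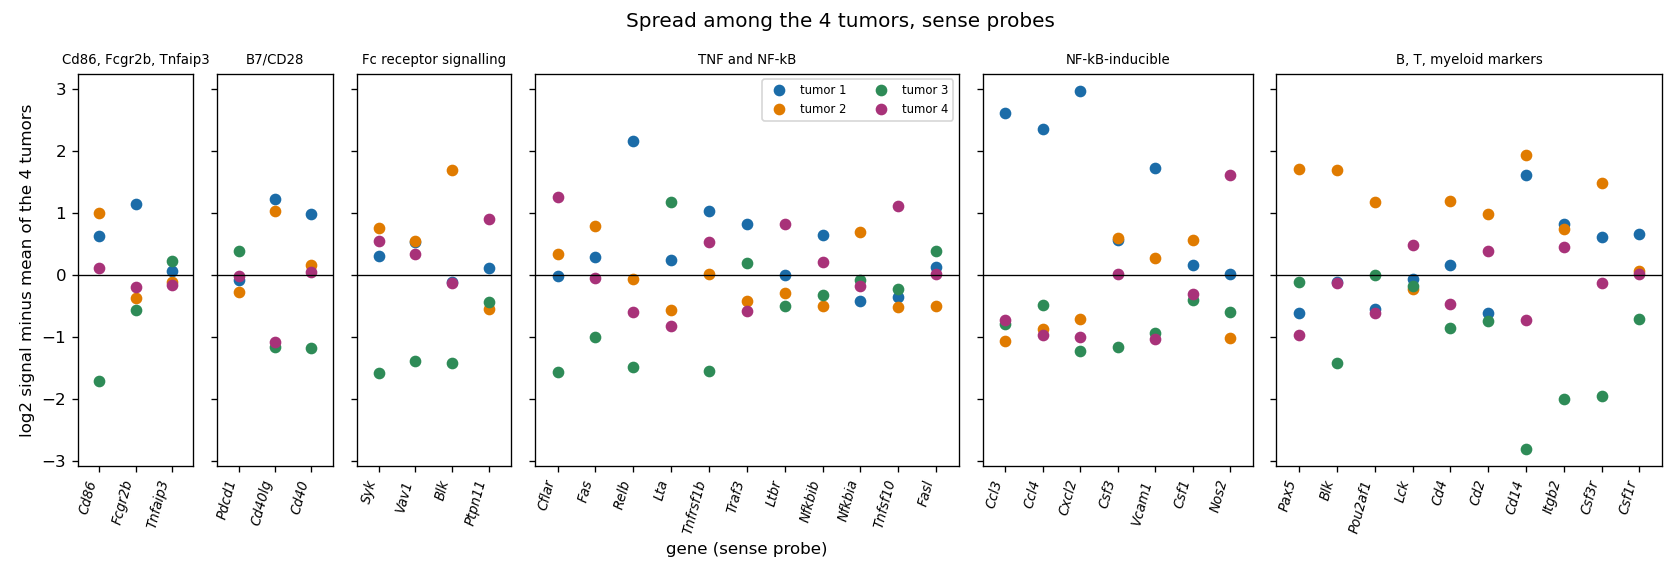
Sense log2 signal of each tumor minus the mean of the 4 tumors (vertical axis) for Cd86, Fcgr2b and Tnfaip3 and for genes of 4 immune lists and the B cell, T cell and myeloid markers; each point is 1 array, in 1 colour per tumor. Tumor 3 is lowest for Cd86 and for all 4 myeloid markers, tumor 1 is highest for Fcgr2b, Ccl3, Cxcl2 and Relb, and the tumors lie close together for Tnfaip3.

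Over the 6 arrays, the probes of other genes whose log2 signal ran most like these were listed by Pearson's r, which here reflects both the difference between tumors and glands and the order of tumors. For the Cd86 sense probe they included the sense probe of Itgb2 (r = 0.98), the β2 integrin chain of leukocytes, after an AFAS probe of Bax (0.99) and before one of Acvr1b (0.97). For the Fcgr2b sense probe they were AFAS probes of Myo6 (0.99), Fes (0.98) and Csf1 (0.98). For the Tnfaip3 sense probe they were the sense probes of Nr3c1, the glucocorticoid receptor (0.99), and Rpsa (0.98) and an AFAS probe of Bmpr1a (0.98). For Cd86 AFAS probe a they were the sense probes of Hspa5 (1.00), Actb (1.00) and Zfp36 (0.99). For Fcgr2b AFAS probe c they were AFAS probes of Pou3f1 (0.97), Arhgef2 (0.97) and Ski (0.97), and for Tnfaip3 AFAS probe e those of Lck (0.99), Src (0.99) and Atf4 (0.98). These are the highest of 1736 to 1738 values each, from 6 arrays in 2 groups, and are a description only.

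The spread across settings is shown for the sense probe of each gene and for the AFAS probe with the largest difference as deposited. For Tnfaip3 that choice, probe e, holds with the lowest value at 5, since at 20 its difference was 0.82 and that of probe c -1.11. On the log2 scale Cd86 AFAS probe a stayed between 4.93 and 7.04, the upper end with the remaining normal gland at the lowest value. Fcgr2b AFAS probe c stayed between -2.88 and -1.93, Tnfaip3 AFAS probe e between 0.82 and 3.63 and the Tnfaip3 sense probe between 1.30 and 2.55. The Cd86 sense probe ran from 0.08 to 1.43. The upper ends of 3.63 and 1.43 come from the replicate block, in which tumors 3 and 4 drop out of the difference.

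**Figure D4:**
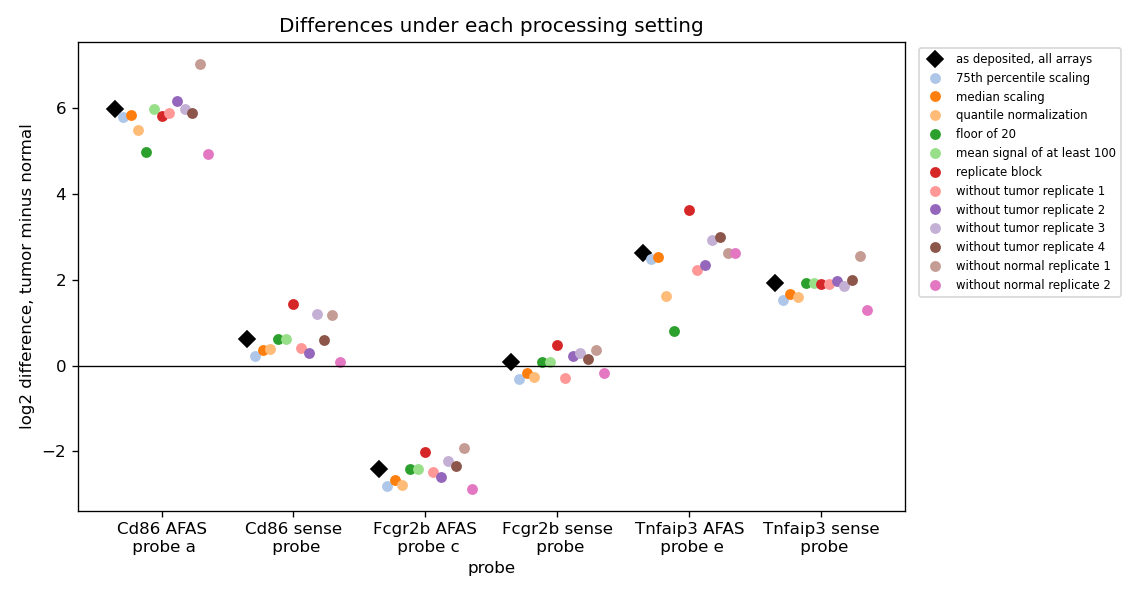
Log2 difference, tumors minus normal glands (vertical axis), of 6 probes as deposited (black diamond) and under each other setting (coloured circles: scalings, lowest value, filter, replicate block and each array left out). The Fcgr2b sense probe crosses 0, and for Cd86 AFAS probe a and the Tnfaip3 sense probe the settings without 1 normal gland lie at the ends.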

How the data were processed

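The authors deposited signal intensities from Agilent Feature Extraction (version 9.1.3.1 per the file headers), scaled by 1 factor per array, for 6 arrays without probe names. The table was joined to probe names by matching its tumor columns with the 4 tumor scanner files, which named 2154 of 2156 entries with factors of 0.957, 0.822, 1.16 and 1.05. No scanner file of a normal gland was used here. Of the 404 sense probes, 82 were linked to a gene only by place, and these were left out of lists and of the search for similar probes after their descriptions had been seen. Tumors and glands were compared on log2 signals as deposited in two-sided tests with lmFit and eBayes (limma 3.58.1, R 4.3.3), adjusted by Benjamini-Hochberg over the 404 sense or 1750 AFAS probes, at a threshold of 0.05. The limma step was tested on simulated data. Tables were made in Python 3.11.15 with numpy 2.4.6 and pandas 2.3.3.

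The members and gene lists were chosen with earlier results of these data known. Named were all member probes, in each of 5 pathway lists the genes past the threshold or otherwise the 2 sense probes with the smallest p, in each of 8 marker lists (B cell, T cell, myeloid, adipocyte, endothelium, luminal and basal epithelium, milk) the sense probe with the highest mean signal, which does not rank the mRNAs, and those past the threshold, and, to go with each gene's sense probe and its AFAS probe of largest difference, the 3 probes of other genes with the highest correlation among those above the lowest value on at least 4 arrays. Syk, Nfkbia, Csf3r, Cd14, Itgb2, Lck, Cd2, Esr1, Prlr, Glycam1 and the genes described as named after their values were seen lie outside this rule. Alternatives were 3 scalings, a lowest value of 20, a mean signal of at least 100, other tests (trend and robust limma, and the methods' t-test, run on linear signals), blocking on the replicate number, leaving out single arrays, another detection flag and normexp with an offset of 50. The number of arrays limits the precision.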

Additional observations from a re-analysis of the deposited data

Results flagged for a closer look

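In the 17 probes the 4 tumors were searched for an array that stood apart. The gap between the highest or lowest tumor and its neighbour was taken as a share of the tumors' range. Dixon's critical value for 4 samples was the limit. This was done on linear signals, not on log2 signals. The limit was passed in 1 of 3 sense probes and 3 of 14 AFAS probes of these genes, beside 12.6% of all sense probes and 22.1% of all AFAS probes. Chance marks about 1 in 20 groups of normally distributed values. Linear signals need not be so distributed, and the rate does not apply to probes with 3 tumors at the lowest value. For the Fcgr2b sense probe the share was 0.869, from tumor 1 (5588 against at most 2215). For Cd86 AFAS probe b it was 0.871, from tumor 2 (144 against at most 39.6). These marks hold for linear signals only. On log2 signals a gap at the upper end takes a smaller share, and the limit was not applied there. For Tnfaip3 AFAS probes a and d the share was 1.00 and 1.00, since tumor 1 alone was above the lowest value of the table, at 27.1 and 17.3. Tumor 1 was also the array with the fewest probes at that value, 17 of 2154, against 250 to 277 in the other tumors. The part of this in the result was not tested.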

How the results depend on the processing

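Precision was limited by 6 arrays, by values at the lowest level and by the scaling. AFAS probes called numbered 8 as deposited, 13 with median scaling, 4 with a lowest value of 20, 5 with a mean signal of at least 100, 0 in the methods' t-test after adjustment and 159 before it, and 0 to 15 with 1 array left out. Sense probes called numbered 59, and 21, 23 and 24 with scaling to the 75th percentile, to the median and by quantiles. They numbered 0 and 64 in the methods' t-test after and before adjustment, and 0 to 89 with 1 array left out. Other immune genes called numbered 6, and 2, 3 and 2 with the same 3 scalings, 0 and 15 in the methods' t-test after and before adjustment, 0 to 14 with 1 array left out, and 6 with sense probes linked by place (chosen after seeing the data). The scaling behind the count of tumor 3 was also chosen then.

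Setting the lowest value to 20 moved the log2 difference of Cd86 AFAS probe a to 4.98 and that of Tnfaip3 AFAS probe e to 0.82, because normal glands stood at the lowest value. With 1 array left out, Cd86 AFAS probe a ran from 4.93 to 7.04 and the Tnfaip3 sense probe from 1.30 to 2.55. The value of 7.04 has its remaining normal gland at the lowest value. Of the 68 spots of these genes on the tumor arrays, 64 were significantly above background and 56 well above it. Labels number replicates in both groups. The deviations of same-numbered arrays from their group means gave Pearson's r of -0.02 and 0.05. With 2 normal glands these deviations mirror each other, so the values cannot decide whether the arrays are paired. Only replicate numbers 1 and 2 occur in both groups. With that number as a block, the differences therefore compare tumors 1 and 2 with normal glands 1 and 2, and tumors 3 and 4 drop out. Under this setting 0 AFAS probes, 0 sense probes and 0 other immune genes were called. So small a fit has little ability to call any. Its log2 differences were 5.82 for Cd86 AFAS probe a, 1.43 for Cd86 sense, -2.02 for Fcgr2b AFAS probe c, 0.48 for Fcgr2b sense, 3.63 for Tnfaip3 AFAS probe e and 1.90 for Tnfaip3 sense.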
